A study of Mus musculus with 27 samples.

Results

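Cytosolic ribosomal protein genes encode the protein subunits of the ribosome outside mitochondria, and their messenger RNA was followed here through mouse colon under chemical carcinogenesis, chemotherapy and probiotics. Members were taken by name: a row counted if its symbol was Rpl or Rps with a number and at most 1 letter of a, x, y or l and 1 digit after it, or Rplp0, Rplp1, Rplp2 or Rpsa. Rows named as pseudogenes (-ps), Rps27l and the Rps6k kinases were left out. The rule found 86 of the 39971 rows of the deposited table, 52 with large subunit and 34 with small subunit names. Among them Rpl32l, Rps3a2, Rps3a3 and Rpl6l are typed as processed pseudogenes in the table despite their names. All but Rpl3l and Rpl39l, 84 rows, had an FPKM (fragments scaled by gene length and library depth) of at least 1 in at least 5 libraries, the filter for testing, which looks at no group in particular.

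A ribosome joins ribosomal RNA, made mostly by RNA polymerase I in the nucleolus, with the ribosomal proteins. Biogenesis factors process and assemble the parts, and translation factors then drive the finished ribosome along messenger RNA. Ribosomal protein transcripts typically begin with a stretch of pyrimidines, the terminal oligopyrimidine tract, through which mTOR signalling and Larp1 set their translation. Genes of both subunits are known to be transcribed together, with Myc among their activators. Surplus Rpl5 and Rpl11 can bind Mdm2, which links disturbed ribosome assembly to p53. Most of these genes have left many processed pseudogenes, nearly identical intronless copies, across the mouse genome.

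All mice were wild-type BALB/c. NC mice (n = 6) received saline by injection and gavage and gave colon. The other groups had been given AOM/DSS, the carcinogen azoxymethane followed in the usual model by the irritant dextran sulfate sodium, and gave a segment of colon bearing tumors: CAC with saline by both routes (n = 5), CAC_F with injected FOLFOX, a combination of folinic acid, fluorouracil and oxaliplatin, and saline by gavage (n = 5), CAC_FP with FOLFOX and complex probiotics by gavage (n = 5), and CAC_FPL with FOLFOX, the probiotics and loperamide, an opioid that slows the gut (n = 6). Tissue was sampled 1 week after chemotherapy began. AOM/DSS exposure and tissue source cannot be told apart in CAC minus NC, and a segment holds tumor and other colon wall in proportions that the labels do not give. Replicates are numbered within each group, and p-values measure the spread between these samples.

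Libraries held 56687812 to 79709845 counts, of which mitochondrial transcripts took 4.01% to 11.7%. That share was 5.44% to 11.7% in CAC and 4.01% to 5.33% in CAC_F, without overlap, and its part in the difference between these groups was not tested. As a check of the labelled tissue, 12 goblet cell markers summed to at least 2724 CPM (counts scaled to equal library size) in every library, and none of the 12 was at 0 throughout a group. The members took 1.57% to 2.76% of counts. CAC replicate 2 and CAC_FPL replicate 3 were set apart in an earlier treatment of these data and were kept here, with counts of called members also given without them.

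The start regions are shown first, because many of the members have a run of pyrimidines near an annotated start. RefSeq (GRCm38.p6) start windows were matched for 62 of the 86 members. A run of at least 9 pyrimidines (C or T, coding strand) lay within 50 bases of an annotated start in 51 of the 62 (82.3%), against 27.5% of the tested genes with a window and 28.4% of all genes with one. The letters CCGGAAG, on either strand, which hold the core bound by ETS factors, were in the 300-base windows of 25 of the 62 (40.3%), against 19.1% of tested genes and 9.93% of all. The windows below run from 25 bases before to 30 bases after the start, 5′ to 3′, with the longest pyrimidine run in capitals. They are those of the 2 members with the smallest spread (Rps25 and Rpl4), of Rps6 and Rpl11, and of the paralog Rpl22l1.
Rps25 (chr9:44407689-44407743, plus strand): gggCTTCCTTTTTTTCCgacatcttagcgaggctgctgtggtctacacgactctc
Rpl4 (chr9:64173362-64173416, plus strand): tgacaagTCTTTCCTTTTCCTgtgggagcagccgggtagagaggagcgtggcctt
Rps6 (chr4:86857338-86857392, minus strand): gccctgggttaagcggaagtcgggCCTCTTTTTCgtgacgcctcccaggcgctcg
Rpl11 (chr4:136053364-136053418, minus strand): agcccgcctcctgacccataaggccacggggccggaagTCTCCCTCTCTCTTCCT
Rpl22l1 (chr3:28805483-28805537, plus strand): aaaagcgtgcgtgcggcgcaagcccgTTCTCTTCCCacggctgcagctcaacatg
The runs measured 14 bases in Rps25 and Rpl4, 10 in Rps6 and Rpl22l1 and 17 in Rpl11, where the printed window ends. Counted from the annotated start, they began at -22 in Rps25 and -18 in Rpl4 and ended before it. They began at -1 in Rps6, at 2 in Rpl22l1 and at 14 in Rpl11, so that not every run lay at the start. Such a match describes letters in a window and is not evidence of a factor or of translational control in this tissue.

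Levels were compared between genes as FPKM, which corrects for length, over all 27 libraries. Rplp1, an acidic protein of the stalk that recruits elongation factors, was highest at 744 ± 125 FPKM (SD, n = 27). Rpl4, which lines the exit tunnel of the large subunit, followed at 568 ± 82.3 FPKM, then Rps3a1 at 483 ± 60.8, Rps15 at 441 ± 66.7 and Rplp0 at 420 ± 79.9. From Rps3a1 down to Rplp0, and on to Rps4x at 411 ± 52.3, neighbours in this order did not differ by more than their SD. The stalk is built of Rplp0 with dimers of Rplp1 and Rplp2, and Rplp2 stood at 53.6 ± 9.79 FPKM, below its partners. In mean counts the gap was smaller, 8105 for Rplp2 and 27100 for Rplp1, at coding lengths of 348 and 345 bases. The gene lengths behind the deposited FPKM, which enter such gaps, were not examined. Rpsa, the small subunit protein also known as a laminin receptor, had 333 ± 79.0 FPKM and Rps6, the substrate of S6 kinases, 312 ± 48.9 FPKM. The Mdm2-binding pair was lower in this unit, with 133 ± 16.7 FPKM for Rpl5 and 112 ± 16.9 for Rpl11. In mean counts, without correction for length, Rpl5 (38162) lay above Rps6 (36114). A mean FPKM of at least 100 was found for 45 members and one below 20 for 14. The low ones included genes every ribosome uses, such as Rpl21 at 1.18 ± 0.342 FPKM and Rpl29 at 3.67 ± 1.17, both of which have many near-identical copies, described further on.

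Paralogs known from other tissues had low levels. Rpl3l, a muscle form of Rpl3, had reads in 25 of 27 libraries but at most 69 counts, and a mean of 0.191 ± 0.157 FPKM against 115 ± 16.5 for Rpl3. Rpl39l, a testis form, had reads in 3 of 27 libraries (9, 4 and 6 counts, 1 library each of NC, CAC_F and CAC_FPL). A count of 0 allows up to 3 counts, or 0.0376 to 0.0529 CPM by library without scaling factors, and covers counting error only. Rpl39 itself had 41.1 ± 5.99 FPKM. Rps4l stood at 1.07 ± 0.649 FPKM against 411 for Rps4x, and Rpl7l1, a Rpl7-like gene, at 21.5 ± 3.46 against 253 ± 32.2 for Rpl7. Rpl22l1 had 14.4 ± 2.31 FPKM against 36.0 ± 4.51 for Rpl22. Rpl10 had 261 ± 30.2 FPKM, and Rpl10l was not analysed here.

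Between mice of one group most members were high or low together. After group means were removed from log2 CPM, the median correlation over the 3486 pairs of members was 0.72 (27 libraries, a description, since all share library depth and scaling). In CAC replicate 1, 80 of 84 members lay above their own mean over the 27 libraries, whereas in CAC replicate 3 only 1 of 84 did. CAC_FP replicate 3 (83 of 84 above) and NC replicate 4 (1 of 84 above) were further extremes. In the 5 CAC_F libraries 56 to 78 of 84 lay above. Most members thus moved together, but not all. The mean correlation with the other members was -0.02 for Rps4l, 0.02 for Rpl17, 0.14 for Rpl29 and 0.15 for Rps27. Correlations among genes outside the members were not examined.

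**Figure D1:**
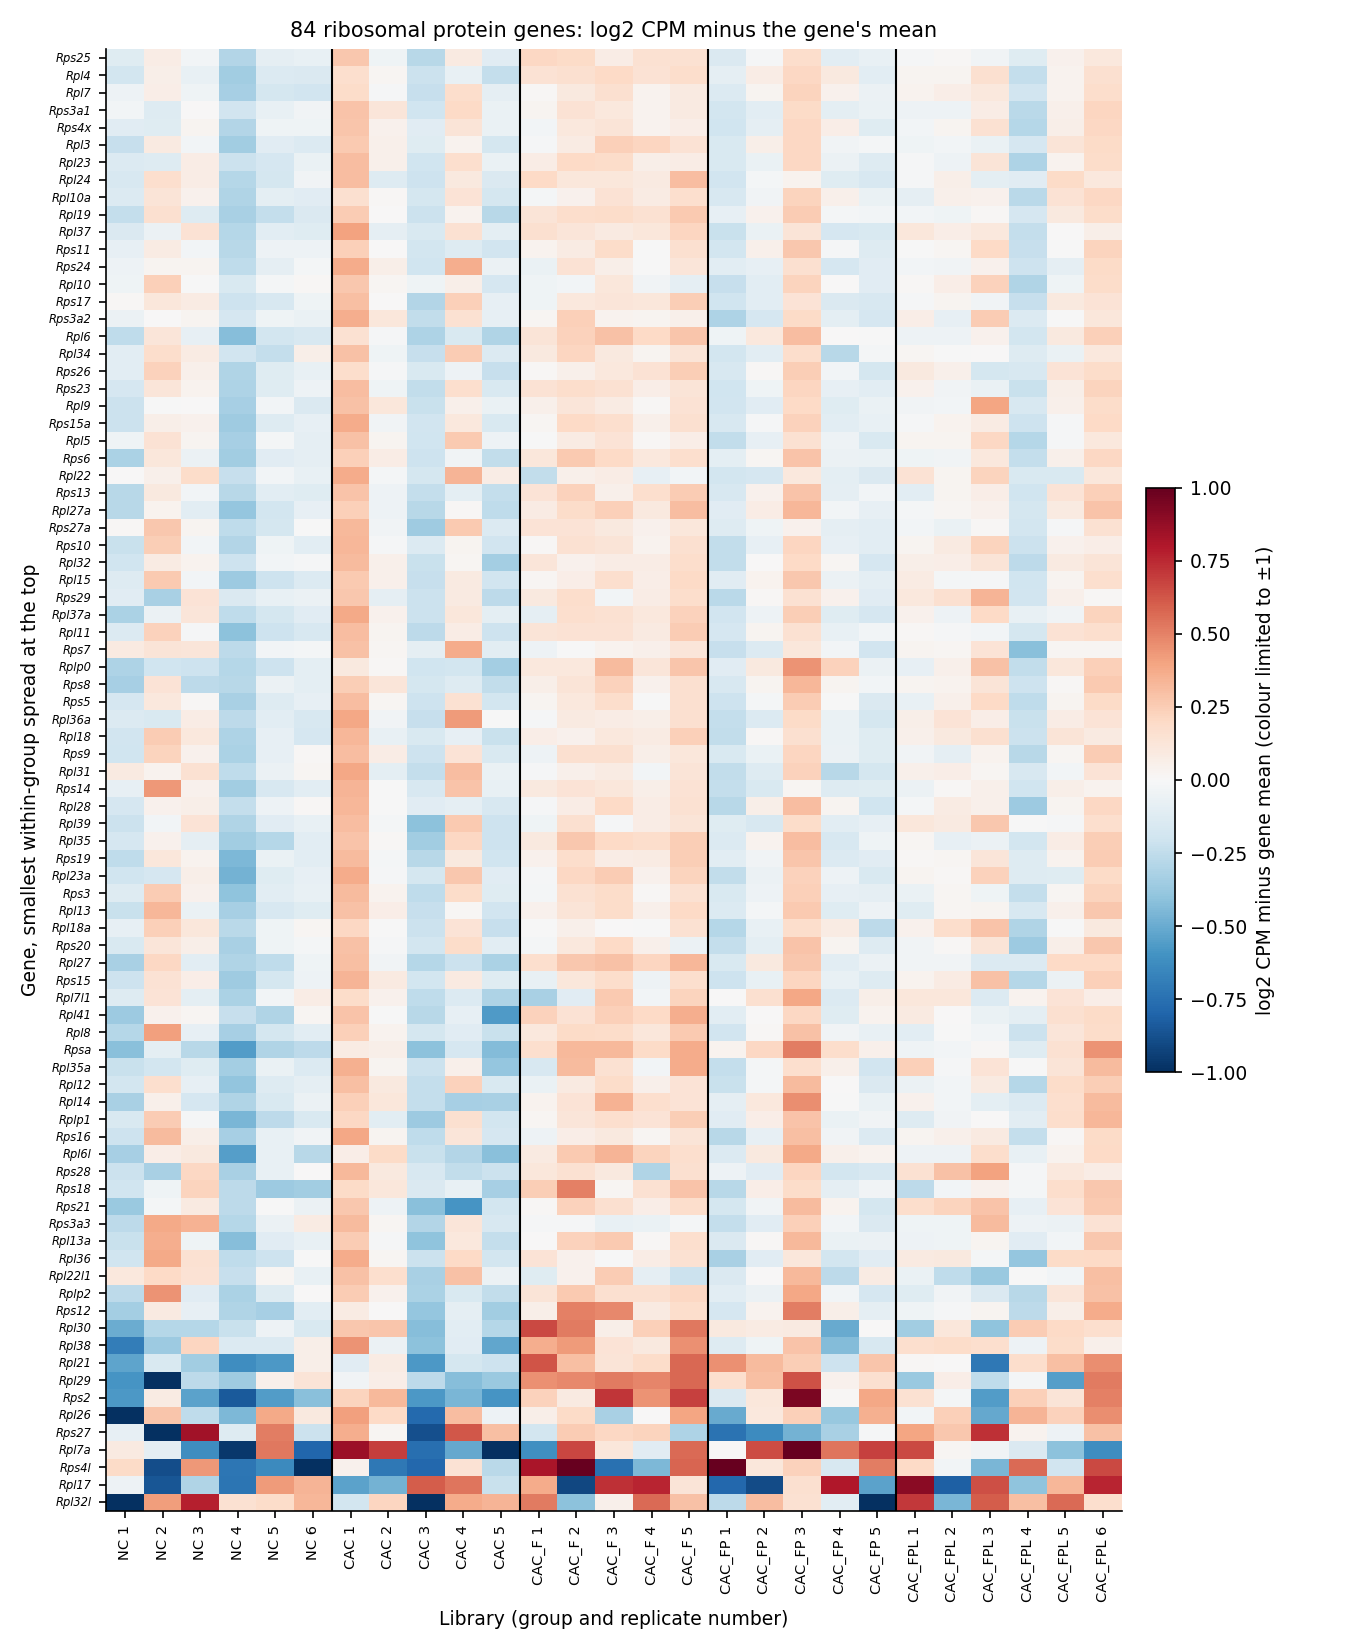
Log2 CPM minus each gene's mean over 27 libraries for the 84 tested members (rows, smallest within-group spread at the top) in every library (columns, by group). Columns such as CAC replicate 1 and CAC replicate 3 are nearly uniform in colour down to the lowest rows, where Rpl7a, Rpl17, Rps27, Rps4l and Rpl32l follow patterns of their own.

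The within-group SD of log2 CPM ranged from 0.13 in Rps25 and Rpl4 to 0.73 in Rpl32l, with a median of 0.17. The 2393 other genes of like level (mean log2 CPM of at least 6.45, the lower quartile of the members) had a median of 0.21 and all tested genes one of 0.29. Rps25 ranged from 198 to 292 CPM over the 27 libraries, whereas Rpl7a went from 77.9 to 435 and Rpl17 from 73.3 to 258. An SD of 0.25 was exceeded by 11 members, among them Rpl21, Rpl29, Rps2, Rpl26, Rps27, Rpl7a and Rpl17.

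Summed over the 86 rows, members reached 20850 ± 2118 CPM in NC (SD, n = 6), 22304 ± 3141 in CAC (n = 5), 24472 ± 1004 in CAC_F (n = 5), 22557 ± 2595 in CAC_FP (n = 5) and 22856 ± 2119 in CAC_FPL (n = 6). The CAC libraries held 26771, 22766, 19144, 23388 and 19452 CPM and the CAC_F libraries 23142, 24751, 25343, 23722 and 25403. CAC_F thus sat inside the range of CAC, with a narrower spread. The large and small subunits kept nearly one proportion, since the ratio of their summed FPKM had a mean of 1.45 and an SD of 0.0342 over the 27 libraries. In bulk tissue, fewer cells of a type and less RNA per cell cannot be told apart.

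**Figure D2:**
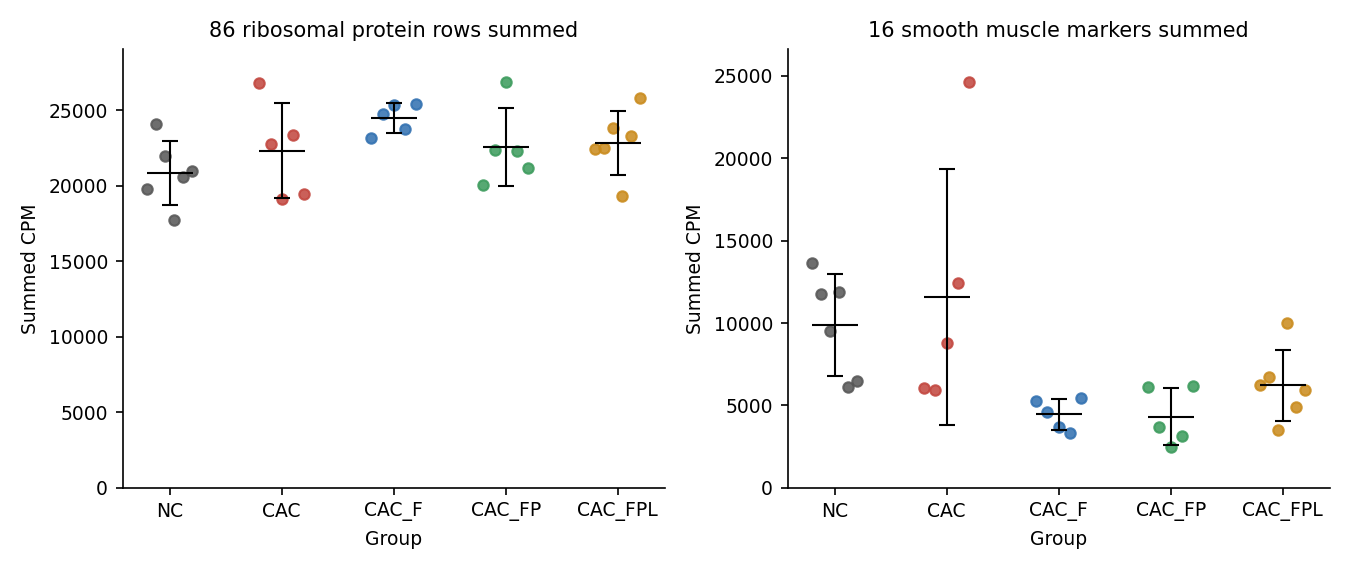
Summed CPM of the 86 member rows (left) and of 16 smooth muscle markers (right) by group, 1 point per library, with mean and SD as bars. Member sums lie between 17742 and 26883 CPM and overlap between all groups, while the muscle markers of CAC_F (3309 to 5452 CPM) lie below all 5 CAC libraries.

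AOM/DSS exposure with its tissue source (CAC minus NC) gave no member an adjusted p below 0.05 (edgeR quasi-likelihood test), 0 of 84, where 0.00663% of all 15080 tested genes were called in either direction and 1164 genes and 2 members had an unadjusted p below 0.05. The log2 fold changes were nevertheless mostly positive and small: 77 of 84 lay above 0, where 52.4% of all tested genes did. Their median was 0.10 against 0.01 for all tested genes. Members moved together between mice, so such signs are not separate observations, here or in the comparisons below. The smallest p fell to Rpl36a at 0.25 ± 0.10 (SE), Rpl23a at 0.24 ± 0.11 and Rps24 at 0.18 ± 0.10, with adjusted p of 0.555, 0.625 and 0.669 by the edgeR quasi-likelihood test. DESeq2, limma and every scaling run also called 0 members. No member was higher or lower without overlap, where 0.617% of all genes were higher and 0.477% lower in that way.

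With FOLFOX (CAC_F minus CAC) 11 of 84 members rose (13.1%) and none fell, in a comparison that called 19% of all genes higher and 20.2% lower, 39.1% in all. The share of members called was thus not above the background. Their median log2 fold change was 0.11, against -0.03 for all tested genes, and 74 of 84 were positive, where 47.7% of all genes were. The 11 were Rpsa, Rpl29, Rpl6, Rps12, Rpl27, Rpl21, Rpl41, Rpl30, Rps2, Rplp0 and Rpl6l, of which Rps2 and Rpl6l are named after their values were seen. The groups did not overlap for 4 of these, Rpsa, Rpl29, Rpl21 and Rplp0, 4 of 84 where 10.9% of all genes were higher and 9.88% lower without overlap. Without CAC replicate 2 and CAC_FPL replicate 3, 15 members were higher.

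Rpsa gave 1180, 1156, 837, 988 and 824 CPM in the CAC mice and 1247, 1394, 1390, 1273 and 1441 in the CAC_F mice. Every CAC_F mouse lay above every CAC mouse. NC ran from 756 to 1040 CPM with a median of 910.4. The log2 fold change against CAC was 0.44 ± 0.12 with an adjusted p of 0.00783 (edgeR quasi-likelihood test), the smallest among members. In CAC_FP the values were 1138, 1282, 1588, 1259 and 1151 CPM, and Rpsa was the only member still called against CAC, at 0.36 ± 0.12 with an adjusted p of 0.0423 (edgeR quasi-likelihood test). That call was lost under 8 alternatives, 5 of them with 1 library left out (CAC replicate 3, 4 or 5 or CAC_FP replicate 2 or 3, with an adjusted p of up to 0.125), and the smooth muscle covariate described further on took it to 0.12 (adjusted p 0.594, edgeR quasi-likelihood test). CAC_FPL ran from 1025 to 1516 CPM with a median of 1107, and its difference from CAC was 0.24 ± 0.12, adjusted p 0.273 by the same edgeR quasi-likelihood test.

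Rplp0, the base of the stalk, held 793, 750.1, 649, 655 and 588 CPM in CAC and 798.9, 798.5, 924, 809 and 899.6 in CAC_F. The groups came within a few CPM of each other and did not overlap, and the rise was 0.30 ± 0.11 (adjusted p 0.0341, edgeR quasi-likelihood test). The call was lost without CAC replicate 3, 4 or 5 or CAC_F replicate 3 and with only the groups compared (adjusted p 0.0572), and the smooth muscle covariate took Rplp0 to 0.021 (adjusted p 0.891, edgeR quasi-likelihood test). Its partner Rplp1 had 457, 368, 308, 442 and 349 CPM in CAC against 403, 430.5, 445, 437 and 469 in CAC_F. The groups overlapped, and the difference was 0.18 ± 0.12 with an adjusted p of 0.247 (edgeR quasi-likelihood test). Rplp2 likewise overlapped, at 0.25 ± 0.14 (adjusted p 0.145, edgeR quasi-likelihood test).

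Rpl6 read 615, 547, 447, 498 and 450.1 CPM in CAC and 606, 649.8, 678, 634 and 669.6 in CAC_F. The highest CAC mouse, replicate 1, overlapped with the lowest of CAC_F, and the rise was 0.34 ± 0.10 (adjusted p 0.0123, edgeR quasi-likelihood test). The large subunit genes Rpl27 and Rpl41 and the small subunit gene Rps12 rose by 0.35 ± 0.12, 0.34 ± 0.12 and 0.41 ± 0.14. Each of these calls was lost under 4 alternatives, the smooth muscle covariate among them. Rpl41 encodes the shortest of the ribosomal proteins. Replicate 1 of CAC held the highest CAC value of Rpl27 (208 CPM), Rpl41 (416 CPM) and Rps12 (209.7 CPM), each inside the range of CAC_F. The differences of the abundant Rps3a1, Rps15 and Rps4x were 0.00 ± 0.09, 0.02 ± 0.12 and 0.00 ± 0.10, and Rpl4 missed the threshold at 0.22 ± 0.10 with an adjusted p of 0.0679 (edgeR quasi-likelihood test). Rpl4 was called under 11 alternatives, among them DESeq2 (adjusted p 0.0190), voom, both limma fits and 3 other scalings. Of the Mdm2-binding pair, Rpl5 was at -0.02 ± 0.10 and Rpl11 at 0.15 ± 0.11, and Rps6 was at 0.20 ± 0.11. The most negative member was Rpl22 at -0.17 ± 0.10, and its paralog Rpl22l1 stood at -0.11 ± 0.14. Rps25 was at 0.16 ± 0.09, Rpl3 at 0.12 ± 0.10, Rpl10 at -0.05 ± 0.10, Rpl39 at 0.05 ± 0.11, Rpl7 at 0.07 ± 0.09 and Rpl7l1 at 0.10 ± 0.12, none of them called.

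Rps2, a core protein of the small subunit, had 69.8, 74.7, 40.2, 43.6 and 39.7 CPM in CAC and 70.2, 63.7, 98.0, 81.8 and 96.0 in CAC_F. The groups overlapped, 2 CAC mice lying inside the range of CAC_F, and the rise was 0.61 ± 0.22 (adjusted p 0.0333, edgeR quasi-likelihood test). The call was lost under 7 alternatives: without CAC replicate 3, 4 or 5 or CAC_F replicate 3 or 5, without a filter, and with the smooth muscle covariate. The covariate gave the largest adjusted p, 0.255 (edgeR quasi-likelihood test). Rpl29 and Rpl21, both large subunit genes at low counts, did not overlap. Rpl29 gave 4.16, 4.47, 3.55, 3.17 and 3.29 CPM in CAC and 5.87, 5.95, 6.13, 5.97 and 6.36 in CAC_F, a rise of 0.70 ± 0.21. Rpl21 gave 3.89, 4.46, 2.82, 3.73 and 3.65 CPM in CAC and 6.53, 5.18, 4.62, 4.77 and 6.29 in CAC_F, a rise of 0.56 ± 0.19. The call of Rpl21 was lost under 3 alternatives and that of Rpl29 under 2. Nearly all reads of these families lie at copies, as described further on.

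The count of called members changed with single CAC mice and with a tissue covariate. Without CAC replicate 1, 22 members were called, without replicate 3 it was 3, without replicate 4 it was 6 and without replicate 5 it was 4. Cell type markers are counted here beside all genes, of which 19% were higher and 20.2% lower. Smooth muscle markers moved with the comparison: 13 of 16 fell, with sums of 5950 to 24640 CPM in CAC and 3309 to 5452 in CAC_F. None was at 0 throughout a group. With the mean log2 CPM of the muscle markers as a covariate, 2 members were called, of which only 1 was among the 11, and the median became -0.044. Goblet cell markers also fell (8 of 12, from 19440 to 54823 CPM in CAC to 2724 to 22724 in CAC_F), 8 of 12 T and NK cell markers fell (50.9 to 187 against 43.1 to 66.1 CPM), and 6 of 12 macrophage markers rose with 1 lower (599 to 1213 against 1241 to 2367 CPM). Of the 6 tested neutrophil markers 3 rose, the list of 10 summing to 13.8 to 137 CPM in CAC, where 2 were at 0 throughout, and 288 to 1074 in CAC_F. All 4 tested erythroid markers fell, the list of 6 summing to 28.5 to 257 CPM in CAC and 0.132 to 0.463 in CAC_F, where 2 were at 0 throughout. Of 12 B and plasma cell markers 4 fell and 1 rose (1881 to 5470 against 1293 to 3343 CPM). The part of these other cell types in the members' change was not tested. Muscle marker sums did not overlap between CAC and CAC_F, so the covariate cannot tell muscle content and treatment apart in this comparison.

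Adding probiotics to FOLFOX (CAC_FP minus CAC_F) gave 0 of 84 calls, as 0% of all genes were called, with 6 members and 2401 genes at an unadjusted p below 0.05. Most differences had one sign, 80 of 84 being negative, where 49.5% of all tested genes were positive. The median was -0.13 against -0.00 for all tested genes. Because members move together, these are not 84 separate observations. Rpl30 differed by -0.45 ± 0.16, Rpl24 by -0.25 ± 0.10 and Rpl37 by -0.23 ± 0.10, with adjusted p of 0.187, 0.211 and 0.244 (edgeR quasi-likelihood test). Rpl24 and Rps14, the latter named after its values were seen, were lower without overlap and none was higher, 2 of 84 where 0.955% of all genes were lower and 1.35% higher in that way. The 4 positive members were Rpl7a at 0.42, Rps4l at 0.33, Rpl7l1 at 0.085 and Rpl22l1 at 0.032. This comparison shares the CAC_F mice with the one before it, so the opposite signs are not independent.

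Adding loperamide (CAC_FPL minus CAC_FP) also gave 0 of 84 calls, with 0% of all genes called, 1 member and 995 genes being below 0.05 unadjusted. None was without overlap, where 0.166% of all genes were higher and 0.0862% lower in that way. The median was 0.04 against 0.01, with 60 of 84 positive, where 52.8% of all genes were. Rps27 showed 0.71 ± 0.26, Rps28 0.23 ± 0.12 and Rpl7a -0.65 ± 0.35, at adjusted p of 0.692, 0.748 and 0.748 (edgeR quasi-likelihood test). Against CAC, which is shared by these comparisons too, 1 of 84 members rose in CAC_FP, Rpsa, where 9.68% of all genes were higher and 8.9% lower, 18.6% in all, and the members' median was -0.02. No member was without overlap there, as 5.19% of all genes were higher and 4.92% lower. In CAC_FPL no member was called, where 0.882% of all genes were higher and 0.524% lower, 1.41% in all, and the members' median was 0.035. None was without overlap, as 0.928% of all genes were higher and 0.743% lower. The member with the smallest p there was Rps21 at 0.33 ± 0.12 (adjusted p 0.136, edgeR quasi-likelihood test).

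Genes that make ribosomal RNA and assemble ribosomes were examined beside the members. Of 54 ribosome biogenesis factors 50 rose and none fell in CAC_F minus CAC, where 19% of all genes were higher and 20.2% lower. Their median log2 fold change was 0.71 beside the members' 0.11. Calls of this and the following gene lists were not examined under the alternatives used for the members, such as the smooth muscle covariate. Ncl, the nucleolar protein nucleolin, went from 344 ± 53.0 CPM in CAC (310.4 to 438) to 879 ± 43.5 in CAC_F (809.7 to 921), a rise of 1.35 ± 0.21. Ddx21, Rrp12 and Utp4, a helicase and processing factors of ribosomal RNA, rose by 1.15 ± 0.17, 1.26 ± 0.19 and 0.96 ± 0.15. Against CAC, 41 of the 54 were also higher in CAC_FP (median 0.52), where 9.68% of all genes were higher. In CAC_FPL 0 were called (median 0.30, 26 at an unadjusted p below 0.05), where 0.882% of all genes were higher. Whether that difference between groups exceeds the spread between mice was tested as CAC_FPL minus CAC_FP, where 0 of 54 and 0% of all genes were called, with a median of -0.24 and 4 at an unadjusted p below 0.05.

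Of 14 RNA polymerase I genes 7 rose and 1 fell in CAC_F minus CAC, where 19% of all genes were higher and 20.2% lower. Rrn3, the initiation factor whose activity tracks growth, rose by 0.60 ± 0.10, Polr1a by 0.80 ± 0.17, Polr1e by 0.90 ± 0.20 and Polr1f by 0.52 ± 0.12, and Polr1h, the only one lower, fell by 0.47 ± 0.12. Of 35 translation factors 20 rose and 2 fell, with a median of 0.28. Eif4g1, the scaffold of the cap-binding complex, rose by 0.69 ± 0.11, Eif2s3x by 0.69 ± 0.11 and Eif3c by 0.50 ± 0.08, whereas the helicase Eif4a2 fell by 0.68 ± 0.09. The elongation factors Eef1a1 and Eef2, whose messages also carry pyrimidine starts, differed by 0.14 ± 0.10 and 0.01 ± 0.11 and were not called. Among 12 host RNAs of small nucleolar RNAs 4 rose and 1 fell, Epb41l4aos by 0.62 ± 0.15, Snhg17 by 0.62 ± 0.18 and Snhg3 by 0.86 ± 0.25, and Snhg18 dropped by 1.11 ± 0.15. The 78 mitochondrial ribosomal proteins gave 6 higher and 6 lower, a smaller share in each direction than among all genes, with a median of 0.03. Mrps18b rose by 0.80 ± 0.16, and Mrpl24, Mrpl48 and Mrpl14 fell by 0.55 ± 0.10, 0.38 ± 0.08 and 0.58 ± 0.14.

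**Figure D3:**
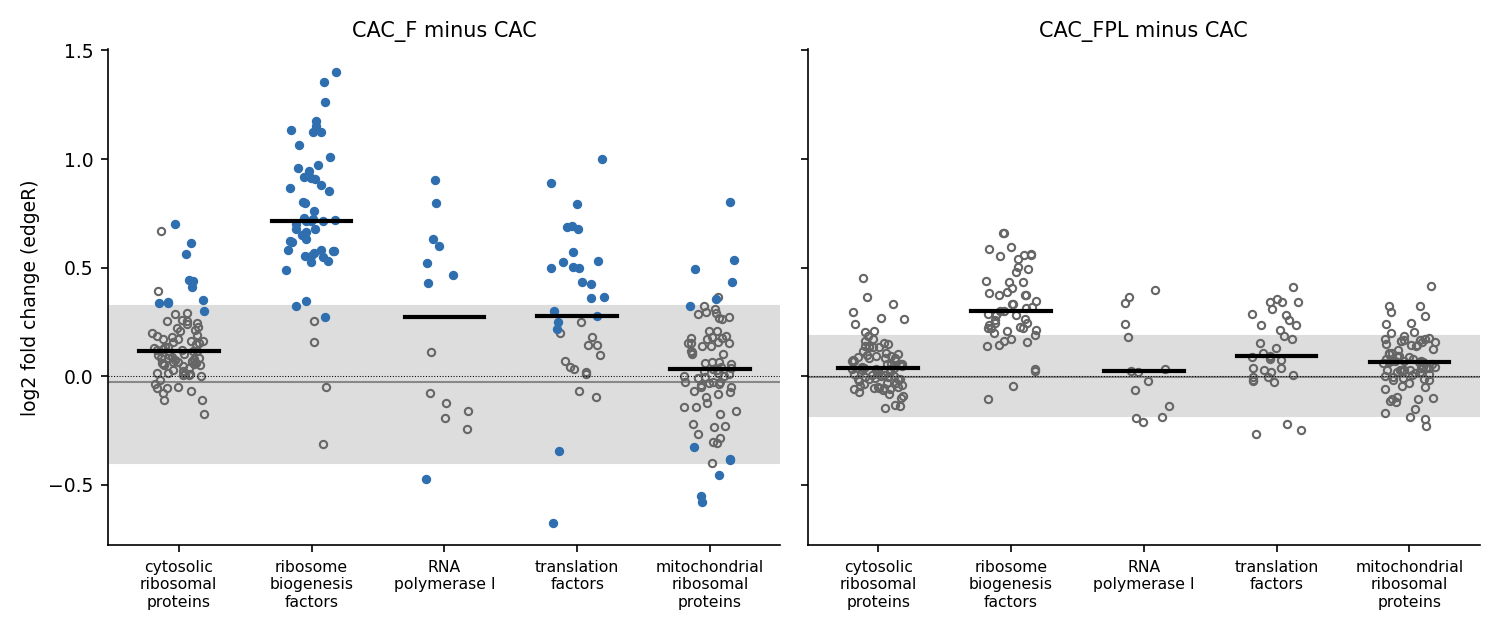
Log2 fold change of every tested gene of 5 lists in CAC_F minus CAC (left) and CAC_FPL minus CAC (right), with filled points for an adjusted p below 0.05 (edgeR quasi-likelihood test), black bars for medians and a grey band for the middle 50% of all tested genes. On the left 50 of 54 biogenesis factors are filled and lie above 0 around a median of 0.71, while the 84 ribosomal proteins cluster around 0.11.

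Regulators of these genes changed in both directions, 7 of 18 tested higher and 4 lower in CAC_F minus CAC. Of all genes 19% were higher and 20.2% lower there. Myc rose from 32.2 ± 13.4 CPM (18.1 to 50.8) to 107 ± 34.6 (74.8 to 159.8), a log2 fold change of 1.73 ± 0.32 with an adjusted p of 0.000338 (edgeR quasi-likelihood test), and Mxd4, a Myc antagonist, fell by 0.84 ± 0.14. Ddit4 and Eif4ebp1, which restrain mTOR signalling and cap-dependent translation, rose by 1.44 ± 0.20 and 1.00 ± 0.20. Mdm2 rose by 0.74 ± 0.13. Of the 6 ribosomal proteins outside the naming rule only Rps27l, a known p53 target, was called, at 0.66 ± 0.12, and all 5 CAC_F mice (48.0 to 57.2 CPM) lay above all 5 CAC mice (28.8 to 37.9 CPM). Its relative Rps27 was at -0.11 ± 0.26. The small subunit protein Rack1 was at 0.02 ± 0.11, and Fau, which encodes a small subunit protein, at -0.18 ± 0.12.

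Many of these genes have near-identical copies, which the same reads may match. By alignment of annotated transcripts, 81 of 86 members had at least 1 other row at 95% identity or more over at least 50% of their coding part, 570 rows in all, which held 0.398% to 0.681% of the counts of a library. In 13 members more than 50% of the counts of the family, a member with its copies, lay at the copies. The share was 98.8% for Rpl21, which had 58 copies, 98.0% for Rpl29, 95.5% for Rpl26 and 92.8% for Rps2. Rpsa (2.96%) and Rpl41 (1.86%) were little touched. Levels and changes of single rows with large shares are therefore uncertain. Among the 49 tested members with under 10% at copies 2 were called higher in CAC_F minus CAC, where 19% of all genes were, with a median of 0.10.

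Rpl7a, an essential large subunit gene on chromosome 2, is shown in detail, a pair chosen after its values were seen. Its copies include Rpl7a-ps11 on chromosome X (165637207 to 165638007, plus strand) and Gm8226 on chromosome 9, processed pseudogenes in the deposited annotation, for which no build is stated in the labels. Over 801 coding bases Rpl7a and Rpl7a-ps11 differ in the reference at 2 positions, A186G and A747C, counted from 1 at the first coding base with the base of the gene first. The 61 bases around each position are shown with that base in capitals, from reference transcripts (GENCODE vM21), to make plain how little separates reads of the pair.
Rpl7a, positions 156 to 216: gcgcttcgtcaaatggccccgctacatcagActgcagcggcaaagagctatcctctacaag
Rpl7a-ps11, positions 156 to 216: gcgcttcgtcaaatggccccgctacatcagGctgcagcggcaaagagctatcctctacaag
Rpl7a, positions 717 to 777: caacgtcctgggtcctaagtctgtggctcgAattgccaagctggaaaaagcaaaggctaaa
Rpl7a-ps11, positions 717 to 777: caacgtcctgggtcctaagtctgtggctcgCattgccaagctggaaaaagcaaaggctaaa
In the CAC mice Rpl7a held 382, 341, 125, 148 and 77.9 CPM and Rpl7a-ps11 142, 111, 167, 162 and 182. The mice with the lowest gene level had the highest copy level. In CAC_F the gene read 138, 335, 228, 195 and 313 CPM and the copy 166, 85.2, 175, 145 and 114. Over 27 libraries the within-group correlation was -0.66, a description, and the family sum (467 to 718 CPM) had an SD of 0.17 in log2 against 0.61 for the gene. Gm8226 held 98.2% to 99.7% of the CPM of Rpl7a-ps11 in every library. Whether reads were counted at several copies was not tested, and if they were, a family sum counts them more than once. With copies summed, the difference of Rpl7a between CAC_FPL and CAC_FP went from -0.65 ± 0.35 to 0.03 ± 0.11.

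Rpl17 and its pseudogene Rpl17-ps10, alike at 99.3% of 555 coding bases, ran in opposite directions, with a within-group correlation of -0.87. The CAC mice had 95.1, 99.2, 210.0, 200.1 and 118 CPM of Rpl17 and 266, 179, 69.1, 133 and 177 of the copy. The SD of Rpl17 was 0.64 alone and 0.15 for its family. Rps27 and Rps27rt, an intronless gene typed as protein-coding, have identical coding parts of 255 bases and correlated at -0.65. In the CAC_FP mice Rps27 read 32.2, 34.7, 38.6, 42.8 and 53.3 CPM and Rps27rt 36.9, 34.6, 43.5, 33.9 and 23.1. With copies summed Rps27 was 0.28 ± 0.12 between CAC_FPL and CAC_FP (adjusted p 0.746, edgeR quasi-likelihood test) in place of 0.71. All mice were BALB/c while the annotation derives from another strain, and the part of strain differences in the counts of gene and copy was not tested.

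**Figure D4:**
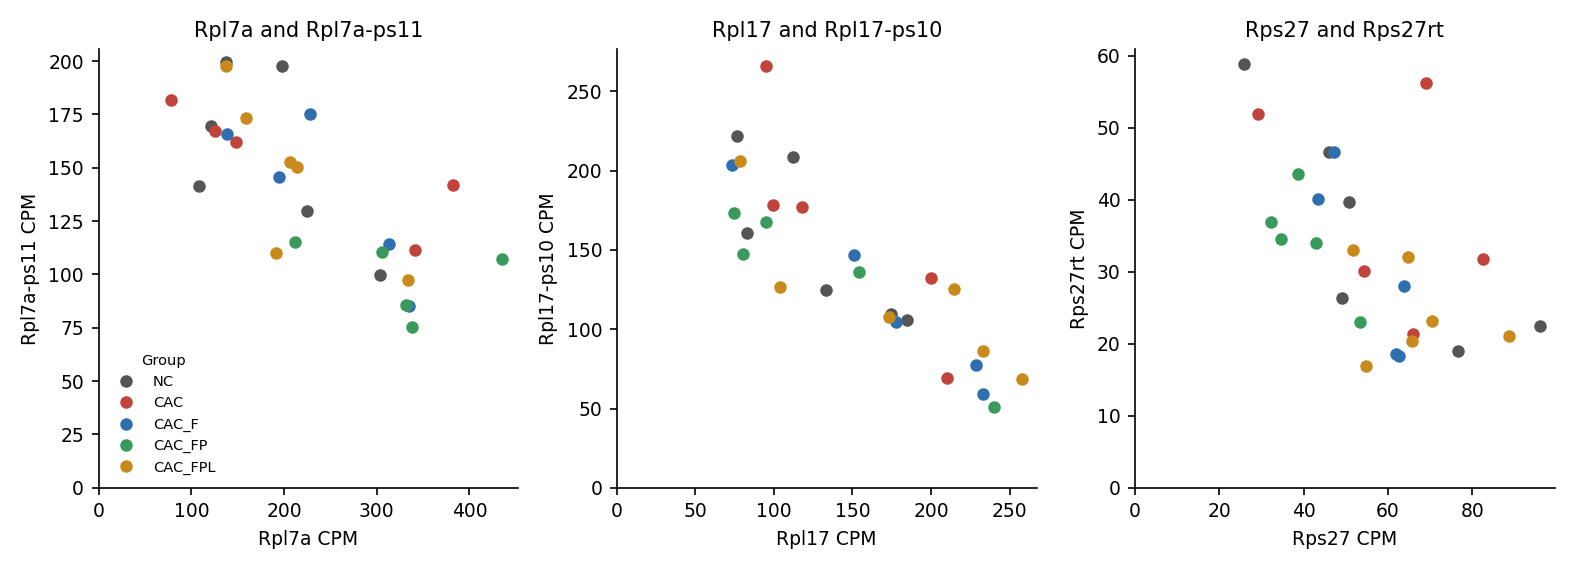
CPM of a member (horizontal) against a near-identical copy (vertical) in each of 27 libraries, coloured by group, for Rpl7a, Rpl17 and Rps27. Most libraries high for the member are low for the copy (within-group correlations of -0.66, -0.87 and -0.65), while CAC replicate 1 is high for both Rps27 (69.0 CPM) and Rps27rt (56.2 CPM).

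Other pairs, also named after their values were seen, correlated positively. Rplp0 and Gm8730, alike at 98.7%, did so at 0.89, Rps2 and Rps2-ps10 at 0.86 and Rpl3 and Rpl3-ps1 at 0.96. Rpl26 (6.83 to 18.9 CPM) carried far fewer counts than its copy Gm15772 (244 to 391 CPM), from which it differs by C177T and T288C. Gm15772 was also steadier, with an SD of 0.14 against 0.41. With each family summed, 2 of 80 families had an SD above 0.25, against 11 of the 84 single rows. That of Rps4l (0.64) has no copy by the alignment, and that of Rps18 rose from 0.20 for the gene alone to 0.27. The median SD went from 0.17 to 0.16.

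**Figure D5:**
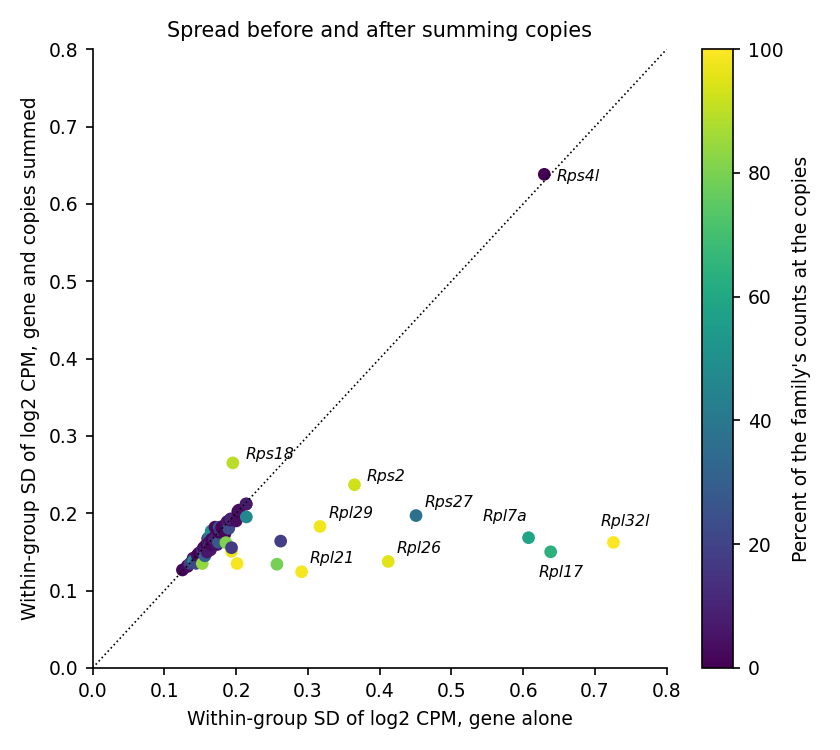
Within-group SD of log2 CPM of each of the 84 members alone (horizontal) and with its copies summed (vertical), coloured by the percent of family counts at copies. Rpl7a, Rpl17, Rps27, Rpl26, Rpl32l, Rpl29 and Rpl21 have an SD of 0.29 to 0.73 alone and of 0.12 to 0.20 summed. Copies hold 95.5% of family counts for Rpl26, 98.0% for Rpl29, 98.8% for Rpl21 and 99.8% for Rpl32l. The summed SD of these genes is therefore mostly that of the copies and does not account for the spread of the gene. Rps4l has 0.63 alone and 0.64 summed.

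With copies summed, a choice made after the data were seen, 6 of 80 families rose in CAC_F minus CAC and none fell (19.2% of all rows higher and 20.3% lower in that fit). They were Rpsa, Rpl6, Rpl27, Rpl41, Rplp0 and Rps2. Rpl21 went from 0.56 ± 0.19 to 0.06 ± 0.09 and Rpl30 from 0.44 ± 0.16 to 0.05 ± 0.09. Rpl29 went from 0.70 ± 0.21 to 0.25 ± 0.12 (adjusted p 0.101) and Rps12 from 0.41 ± 0.14 to 0.28 ± 0.13 (adjusted p 0.0853, edgeR quasi-likelihood test), so that none of these 4 was called. Rps2, whose copies moved with it, was 0.52 ± 0.15 with an adjusted p of 0.00921 (edgeR quasi-likelihood test). In CAC_FP minus CAC the families of Rpsa and Rps2 were higher, by 0.36 ± 0.12 and 0.44 ± 0.15, and that of Rps27 fell by 0.40 ± 0.13 (adjusted p 0.0433, 0.0451 and 0.0296, edgeR quasi-likelihood test), in a fit that called 9.8% of all rows higher and 9.02% lower.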

How the data were processed

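Bulk RNA-seq of mouse colon gave 27 libraries in 5 groups, dUTP-stranded mRNA libraries of Trizol RNA, per the labels' protocols. The deposited table gives raw counts for every gene as whole numbers, 27 columns in all, and next to them FPKM values that the authors computed. Tools listed in the submitters' processing notes are cutadapt 1.9, FastQC and HISAT2. Neither labels nor header state how counting was done, on which annotation and build, or how reads matching several places were handled.

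The members and gene lists were chosen with earlier results of these data known. After a filter on low values (FPKM no lower than 1 in 5 or more libraries, 15080 genes), all 27 libraries were fitted with 1 coefficient per group by edgeR 4.0.16 (quasi-likelihood test, TMM scaling, R 4.3.3). Tests were two-sided with Benjamini-Hochberg adjustment over all genes tested, called below 0.05, and the script was tested on simulated data. The SE was taken as the size of the log2 fold change divided by the root of F. CPM use TMM-scaled library sizes. Total counts were 56687812 to 79709845 per library. DESeq2 1.42.0, limma 3.58.1, other scalings and filters, a smooth muscle covariate, a replicate block and left-out libraries were alternatives.

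Named members were, per stepwise comparison, up to 8 called in each direction by adjusted p or else the 3 with the smallest p, plus a set list: the 5 most abundant, the stalk proteins, Rpsa, Rpl5, Rpl11, Rps6, paralog pairs and the 2 members each of largest and smallest spread. Each gene list gave at most 4 called genes, taken by adjusted p, or at most 2 by unadjusted p, with Myc, Mdm2 and Eif4ebp1 always included. Rps2, Rpl6l, Rps14, Rps21, Rps18, Rpl26, Polr1h and the copies were named after their values were seen. Eef1a1, Eef2, Rack1 and Fau, none of them called, were also named outside this rule. Copies were found with BLAST of coding parts against GENCODE vM21 transcripts (GRCm38, strain C57BL/6J).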

Additional observations from a re-analysis of the deposited data

Results flagged for a closer look

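Each named member and the summed level were examined in each group for a highest or lowest library far from the rest, 215 sets of 5 or 6 values, and 19 (8.84%) were picked out where chance picks about 1 in 20. Of these, 8 were the highest value of CAC_FP in replicate 3, the library in which 83 of 84 members lay above their mean: Rps12 at 282 CPM (next 206), Rps3a1 at 580 (next 485), Rps15 at 345 (next 283), Rplp2 at 155 (next 116), Rps6 at 646 (next 537), Rpl22 at 121 (next 106), Rpl39 at 71.8 (next 59.9) and Rps24 at 459 (next 388). Because members move together, these are not separate events.

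Other single libraries were Rpl30 at 16.8 CPM, the lowest of CAC_FP, in replicate 4, and Rps4l at 5.02, the highest, in CAC_FP replicate 1 (next 1.94). Rplp2 reached 162 CPM in NC replicate 2 (next 119) and Rpl10 626 in CAC_F replicate 3 (next 566). Rpl36a (72.9 CPM) and Rpl37 (74.8 CPM) were lowest in CAC_FPL replicate 4, and Rps28 (23.7 CPM) in CAC_F replicate 4. Among scarce paralogs, Rpl3l reached 1.1 CPM in NC replicate 2, and Rpl39l was at 0.156, 0.0617 and 0.0802 CPM in the 3 libraries that held any of its reads.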

How the results depend on the processing

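For CAC_F minus CAC the count of 11 members higher became 19 with library totals, 19 with voom, 19 with limma on log2(FPKM + 1), 18 on log2(FPKM + 0.1), 17 with DESeq2, 7 with only the groups compared, 6 with copies summed (added after seeing the data) and 2 with the smooth muscle covariate, and 3 to 22 with 1 library left out. No setting called a member lower there. For CAC_FP minus CAC the 1 call became 0 without a filter, 0 with only the groups compared, 2 with the covariate (1 higher and 1 lower, neither of them Rpsa), 3 with copies summed, 8 with voom (5 higher and 3 lower), 3 without CAC replicate 2 and CAC_FPL replicate 3, and 0 to 2 with 1 library left out. For CAC_FPL minus CAC the 0 calls became 1 with voom and 0 to 1 with 1 library left out, Rps21 in both cases. The covariate moved the medians to -0.044 (CAC_F minus CAC) and -0.19 (CAC_FP minus CAC). Summed CPM of CAC_F was 25582 with library totals. Without CAC replicate 2 and CAC_FPL replicate 3, CAC_F minus CAC called 15. The cause was not tested. Of 2868 values of named members under alternatives 2793 kept their side of the threshold, 55 lost and 20 gained a call. A change of sign was counted only where the member was called in either fit, which gave 0. Uncalled members did change sign, such as Rpl26 in CAC_F minus CAC, at -0.141 to 0.118 with 1 library left out.

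Same-numbered mice correlated at 0.02 to 0.26 in CAC_F minus CAC, all positive, and at -0.34 to -0.02 in CAC minus NC, all negative. The range was -0.15 to 0.36 in CAC_FP minus CAC_F and -0.49 to 0.06 in CAC_FPL minus CAC_FP. The main fit used no pairing. Mice of unlike number were not compared, so the check cannot exclude a shared cage or day. With a replicate block 11 members were called in CAC_F minus CAC, and the other comparisons kept their counts.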
